A study of Mus musculus with 8 samples.

Results

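Romidepsin was set directly against talazoparib in the line MBL2, a T-cell lymphoma of C57BL/6 mice induced by Moloney murine leukaemia virus. The comparison used the 4 libraries of cells that had received a single drug, 2 for romidepsin (written romidespin in the sample labels) and 2 for talazoparib, of 8 libraries in the series. The other 4, 2 for both drugs together (the combination) and 2 for untreated control cells, served to place the same genes. Every group was the unmodified line, with RNA taken 24 h after a single dose. No source used here states a dose, so each drug stands at 1 unstated dose, and the values say nothing of their potency. Whether replicate libraries are separate cultures is not in the labels. The p-values therefore reflect the spread between these samples alone, and that spread may be technical.

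Romidepsin blocks class I histone deacetylases, the enzymes that take acetyl groups off histones and other proteins, and it is used as a drug against T-cell lymphoma. Talazoparib blocks the PARP enzymes, which mark DNA breaks with chains of ADP-ribose, and it also holds PARP protein on the DNA. Breaks that persist through replication are known to activate the transcription factor p53, which induces cell-cycle inhibitors, death genes and its own inhibitor Mdm2.

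Total counts were 28419156 and 38079995 reads in the romidepsin libraries, against 30957491 and 28875070 reads in the talazoparib libraries. The table holds 12260 genes, all with 1 read or more in every one of the 8 libraries, and 11934 passed the filter on low counts and were tested. Levels are CPM, read counts relative to the scaled library size, and differences are log2 fold changes of romidepsin over talazoparib. A gene passed the test, and is called higher or lower with romidepsin, where its Benjamini-Hochberg adjusted p over all tested genes was under 0.05 in edgeR's quasi-likelihood test. Between the libraries of a group, the root mean square log2 difference over genes was 0.376 with romidepsin and 0.439 with talazoparib. The first principal component, with 50.3% of the variance, placed the romidepsin libraries at -19.2 and -26.5 and the talazoparib libraries at 15.1 and 27.9. T-cell markers fitted the labelled cell type: 8 of 12 were listed, and their summed level was 2642 and 2729 CPM with romidepsin, 2448 and 2442 CPM with talazoparib, and 2793 and 2614 CPM in control. The T-cell genes Trbc1, Trbc2, Cd8a and Cd8b1 were not analysed here.

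The drugs differed in 1051 of 11934 genes, 8.81%. Of these, 428 were higher with romidepsin, 3.59% of the genes tested, and 623 were lower, 5.22%. Large differences lay mostly on the lower side: 218 genes (1.83%) were at least 2-fold lower with romidepsin and 47 (0.394%) at least 2-fold higher. Among all tested genes, 3347 (28.0%) had an unadjusted p under 0.05, and in 6405 (53.7%) the romidepsin libraries did not overlap the talazoparib libraries. The ribosomal RNA gene Rn45s took 0.139% and 0.236% of the reads with romidepsin, 0.520% and 0.394% with talazoparib, 0.183% and 0.172% with the combination and 0.173% and 0.135% in control. Its part in the difference was not tested.

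The untreated cells lay close to the romidepsin cells for most of these genes. Of the 428 genes higher with romidepsin, the control mean lay nearer to the romidepsin mean than to the talazoparib mean, on the log2 scale, in 411 (96.0%). Of the 623 lower genes it did so in 593 (95.2%), against 8375 of all 11934 genes (70.2%). The higher genes had a median log2 fold change over control of 0.05 with romidepsin and -0.51 with talazoparib, and the lower genes had medians of -0.05 with romidepsin and 0.76 with talazoparib. Both contrasts use the same control libraries. Against control, 3 genes passed with romidepsin (0.0251%), 1 higher (0.00838%) and 2 lower (0.0168%), while 522 (4.37%) had an unadjusted p under 0.05. With talazoparib 1321 passed against control (11.1%), 767 higher (6.43%) and 554 lower (4.64%), and 3482 (29.2%) had an unadjusted p under 0.05.

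Those 3 genes show where the romidepsin libraries departed from control. Gsk3b (gene ID 56637, chromosome 16, 38089001 to 38246084, coordinates on GRCm38), a kinase of the Wnt and glycogen pathways, stood at 61.2 and 57.3 CPM with romidepsin, 100.3 and 95.3 CPM with talazoparib, 96.3 and 91.8 CPM with the combination and 109 and 116 CPM in control. Its romidepsin libraries were the lowest of all 8, and it was lower with romidepsin than with talazoparib (log2 -0.72, SE 0.09, adjusted p = 0.00483, edgeR), a call lost in the fit of only the 4 compared libraries (adjusted p 3.17e-08 to 0.0581 over all these fits). Tmem254a stood at 0.183 and 0.163 CPM with romidepsin, 0.346 and 0.434 CPM with talazoparib and 3.53 and 4.08 CPM in control, and did not pass between the drugs (log2 -1.16, SE 0.48, adjusted p = 0.163, edgeR). The remaining gene, Mdm4, is described with the regulators of p53.

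**Figure D1:**
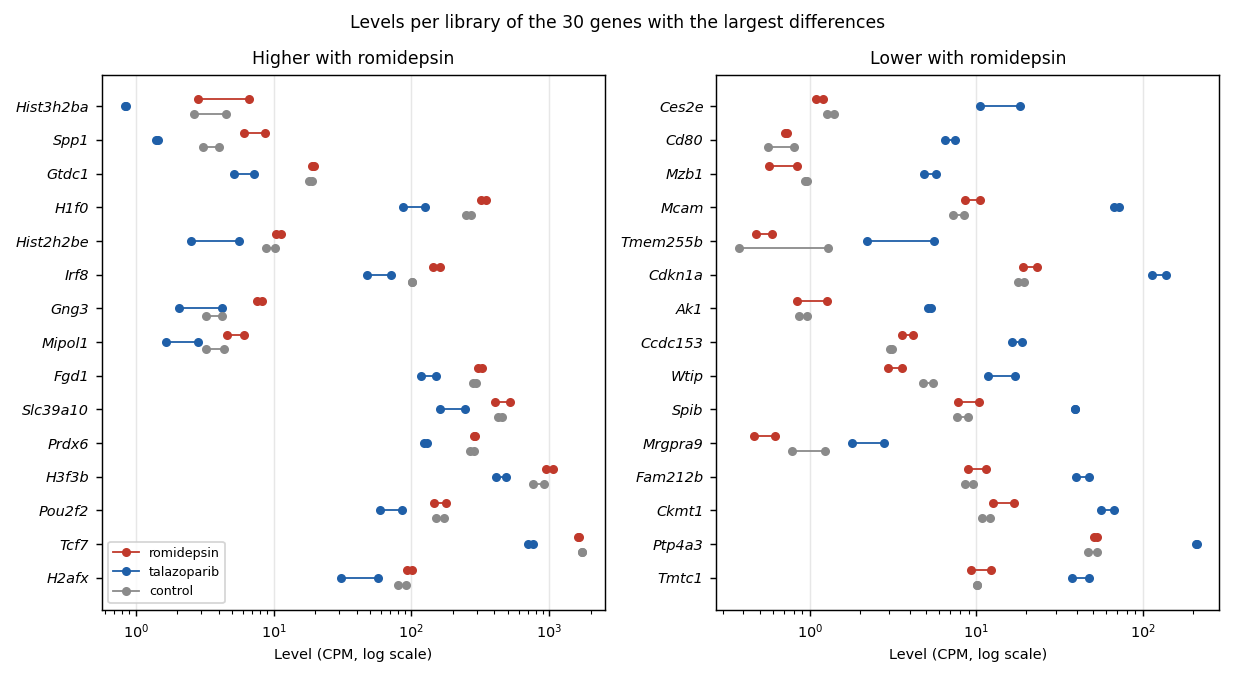
Level in CPM (log axis), 1 point per library, with a line joining the libraries of a group. Shown are the 15 genes furthest higher and the 15 furthest lower with romidepsin, called the 15 largest in the text. They were taken from called genes with at least 2 FPKM (fragments per gene length and depth) in the higher group. An ordinary symbol and no overlap between the drugs' libraries were also required. Called genes outside this choice reached log2 -4.02 on the lower side and 3.30 on the higher. The romidepsin points lie apart from the talazoparib points in every row, as the choice of genes required, and in 29 of the 30 rows the control mean lies nearer to romidepsin.

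Among genes lower with romidepsin with at least 2 FPKM in the higher group, an ordinary symbol and no overlap of libraries, Ces2e differed most. Ces2e (gene ID 234673, chromosome 8, 104926260 to 104934672), a carboxylesterase with close paralogs, stood at 1.21 and 1.09 CPM with romidepsin, against 10.5 and 18.2 CPM with talazoparib. Cd80 (gene ID 12519, chromosome 16, 38457430 to 38495958), the ligand of the T-cell receptors Cd28 and Ctla4, stood at 0.731 and 0.707 CPM with romidepsin, against 6.46 and 7.47 CPM with talazoparib. Their log2 fold changes were -3.64 (SE 0.29) and -3.27 (SE 0.26), with adjusted p of 0.000734 and 0.000653 (edgeR). In both genes the control libraries, at 1.27 and 1.40 CPM for Ces2e and 0.808 and 0.565 CPM for Cd80, lay beside the romidepsin libraries. Mcam (gene ID 84004, chromosome 9, 44134658 to 44142727), a cell adhesion molecule, had 8.52 and 10.6 CPM with romidepsin, against 72.3 and 66.9 CPM with talazoparib, and 8.41 and 7.21 CPM in control (log2 -2.86, SE 0.15, adjusted p = 0.000131, edgeR). Ptp4a3 (gene ID 19245, chromosome 15, 73723145 to 73758766), a tyrosine phosphatase and p53 target, had 51.1 and 52.9 CPM with romidepsin, against 209.9 and 208 CPM with talazoparib (log2 -2.01, SE 0.10, adjusted p = 0.000131, edgeR). The talazoparib values of Mcam and Ptp4a3 lay far above all romidepsin and control values. Other large differences were seen in Mzb1, known from plasma cells (log2 -2.92), the adenylate kinase gene Ak1 (-2.32), Ccdc153 (-2.19), Wtip (-2.15), Fam212b (-2.09) and the mitochondrial creatine kinase gene Ckmt1 (-2.06). Spib, a transcription factor of the B-cell and dendritic-cell lineages, stood at 7.75 and 10.3 CPM with romidepsin, 39.2 and 39.2 CPM with talazoparib and 8.97 and 7.71 CPM in control (log2 -2.11). Every gene of this paragraph kept its call in each of 17 other fits, which changed the scaling, filter or tool, used only the 4 compared libraries, added a replicate block or left out 1 of the 8 libraries.

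Of the 15 largest lower genes, Tmem255b, Mrgpra9 and Tmtc1 rest on fewer reads or on a wider spread. Tmem255b stood at 0.475 and 0.598 CPM with romidepsin, against 2.21 and 5.54 CPM with talazoparib (log2 -2.83), the G-protein-coupled receptor gene Mrgpra9 at 0.621 and 0.462 CPM with romidepsin, against 1.79 and 2.80 CPM with talazoparib (log2 -2.09), and Tmtc1 at 12.2 and 9.30 CPM with romidepsin, against 37.5 and 47.8 CPM with talazoparib (log2 -1.99). Each lost its call without romidepsin 1, romidepsin 2 or talazoparib 2, Tmem255b also without either combination library and Tmtc1 also without either control library. Their adjusted p over all these fits ran from 0.000132 to 0.166 for Tmem255b, 0.000475 to 0.114 for Mrgpra9 and 0.00514 to 0.198 for Tmtc1 (edgeR, DESeq2 and limma), with log2 fold changes of -3.34 to -2.02, -2.38 to -1.74 and -2.20 to -1.81 when a library was left out.

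Among genes higher with romidepsin, the transcription factor gene Tcf7 (gene ID 21414, chromosome 11, 52246527 to 52283383), needed for T-cell development, had the smallest adjusted p of the 15 largest. Tcf7 stood at 1642 and 1624 CPM with romidepsin, 707 and 762 CPM with talazoparib and 1738 and 1739 CPM in control (log2 1.15, SE 0.09, adjusted p = 0.000656, edgeR). In bulk RNA, fewer cells of a kind and less RNA per cell cannot be told apart. Spp1 (gene ID 20750, chromosome 5, 104435111 to 104441053), which encodes osteopontin, a secreted protein that binds integrins, stood at 8.74 and 6.06 CPM with romidepsin, 1.45 and 1.40 CPM with talazoparib, 4.42 and 4.00 CPM with the combination and 3.07 and 4.02 CPM in control (log2 2.37, SE 0.26, adjusted p = 0.00318, edgeR). Its romidepsin libraries were above the control and combination libraries, and its talazoparib libraries were below them. Against control Spp1 did not pass with romidepsin (log2 1.06, adjusted p = 0.940, edgeR). It passed as lower with talazoparib (log2 -1.31, adjusted p = 0.0208, edgeR). Gtdc1 stood at 19.0 and 19.6 CPM with romidepsin, against 7.18 and 5.17 CPM with talazoparib (log2 1.65, SE 0.19, adjusted p = 0.00445, edgeR), and Fgd1, an activator of the small GTPase Cdc42, at 304 and 325 CPM with romidepsin, against 151 and 118 CPM with talazoparib (log2 1.22, SE 0.12, adjusted p = 0.00204, edgeR). The control libraries of Gtdc1, at 19.1 and 18.1 CPM, and of Fgd1, at 297 and 278 CPM, lay at or just under the romidepsin level. Tcf7, Spp1, Gtdc1 and Fgd1 kept their calls in all 17 other fits.

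Irf8, a transcription factor of interferon signalling and of myeloid and B cells, stood at 163 and 143 CPM with romidepsin, 71.3 and 47.8 CPM with talazoparib, 112 and 97.6 CPM with the combination and 102 and 100.5 CPM in control (log2 1.36, SE 0.18, adjusted p = 0.00606, edgeR). The romidepsin libraries were the highest and the talazoparib libraries the lowest of the 8, and the call was lost with only the 4 compared libraries (adjusted p 1.02e-11 to 0.0623 over all these fits). Against control Irf8 did not pass with romidepsin (log2 0.60, adjusted p = 0.940, edgeR). It passed as lower with talazoparib (log2 -0.76, adjusted p = 0.0319, edgeR). Gng3, a G-protein subunit, stood at 7.64 and 8.24 CPM with romidepsin, against 4.22 and 2.07 CPM with talazoparib (log2 1.33), with 4.23 and 3.22 CPM in control. It is the gene of the 15 whose control mean lay nearer to talazoparib. The zinc transporter gene Slc39a10 (log2 1.19), the peroxiredoxin gene Prdx6 (1.19), the Oct-2 gene Pou2f2 (1.16) and Mipol1 (1.24) complete the group with the histone genes H1f0, H3f3b, H2afx, Hist3h2ba and Hist2h2be. Slc39a10 and Pou2f2 lost their calls without romidepsin 1, Prdx6 without romidepsin 1, romidepsin 2 or talazoparib 2, and Gng3 and Mipol1 on leaving out any library but talazoparib 1. Over all alternatives adjusted p ran from 2.95e-08 to 0.0868 for Slc39a10, 8.48e-09 to 0.0724 for Pou2f2, 3.58e-06 to 0.106 for Prdx6, 0.00081 to 0.154 for Gng3 and 0.00417 to 0.202 for Mipol1 (edgeR, DESeq2 and limma). Their log2 fold changes with a library left out were 0.91 to 1.52 for Slc39a10, 0.92 to 1.44 for Pou2f2, 1.16 to 1.21 for Prdx6, 0.91 to 1.94 for Gng3 and 0.91 to 1.68 for Mipol1. Just outside the 15 on either side lay Ero1l (1.13) and Platr14 (-1.96).

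**Figure D2:**
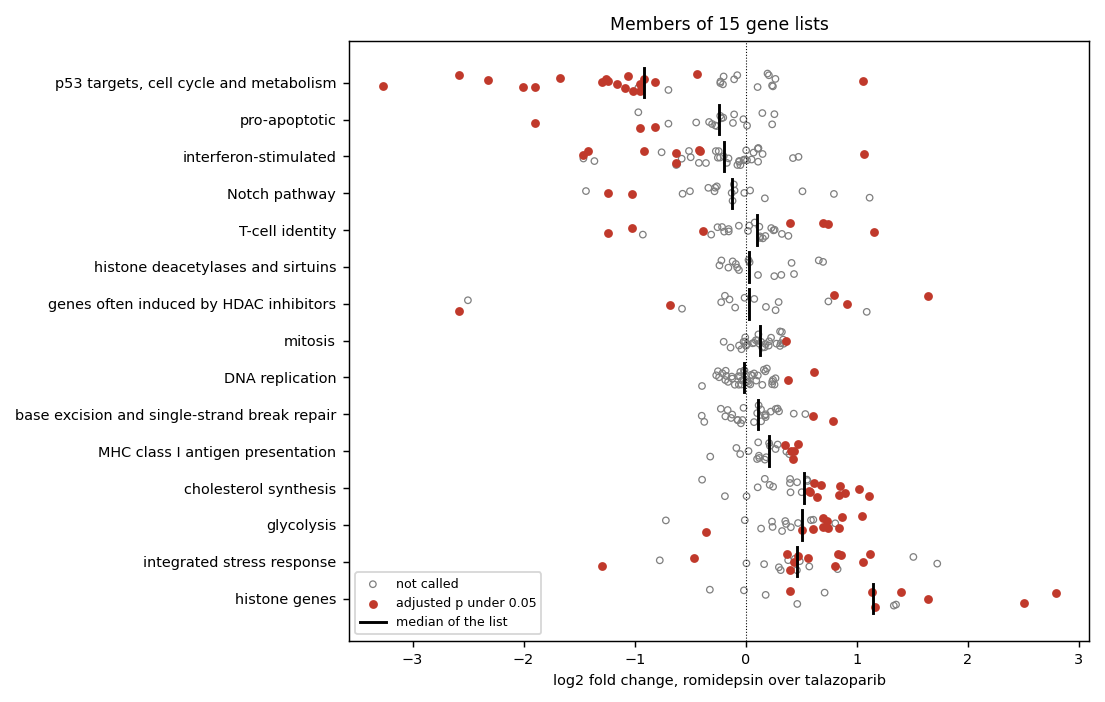
Log2 fold change of romidepsin over talazoparib for every tested member of 15 gene lists, 1 point per gene, filled where the adjusted p was under 0.05, with a bar at the list's median. The p53 target list has its median at -0.92, the histone list at 1.15, and the cholesterol, glycolysis and integrated stress response lists at 0.46 to 0.53, beside 0.00 over all tested genes.

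Target genes of p53 were the list with the most members lower with romidepsin. Of 33 tested, 18 were lower, 1 was higher and 14 did not pass, with a median log2 fold change of -0.92, beside 0.00 over all tested genes. Over all tested genes 5.22% were lower and 3.59% higher, the shares to set beside each list count from here on. Against control the list's median was 0.04 with romidepsin and 0.99 with talazoparib. Cdkn1a (gene ID 12575, chromosome 17, 29090979 to 29100722), the gene of the cell-cycle inhibitor p21, stood at 19.0 and 23.1 CPM with romidepsin, 138 and 114 CPM with talazoparib, 146 and 148 CPM with the combination and 19.3 and 17.7 CPM in control (log2 -2.58, SE 0.13, adjusted p = 0.000131, edgeR). Its romidepsin and control libraries overlapped, and all talazoparib and combination libraries lay far above them. Ccng1 (gene ID 12450, chromosome 11, 40748552 to 40755309), cyclin G1, stood at 287 and 316 CPM with romidepsin, against 942 and 975 CPM with talazoparib (log2 -1.67, SE 0.10, adjusted p = 0.000269, edgeR). Zmat3, an RNA-binding p53 target, stood at 38.8 and 37.7 CPM with romidepsin, against 89.9 and 91.3 CPM with talazoparib (log2 -1.25, SE 0.09, adjusted p = 0.000617, edgeR). In neither gene did the libraries of the drugs come near each other. Ptp4a3 and Cd80, described above, are members of this list too. The exception was Ddit4, an inhibitor of mTOR signalling that the integrated stress response also induces, at 479 and 668 CPM with romidepsin, against 318 and 235 CPM with talazoparib (log2 1.05, SE 0.20, adjusted p = 0.0213, edgeR). Its call was lost without romidepsin 2, without talazoparib 2 and with only the 4 compared libraries (adjusted p 4.22e-06 to 0.114, log2 0.79 to 1.29 with a library left out). The count of lower members was 14 to 18 when any library was left out and 13 with only the 4 compared libraries.

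Near the start of some of these genes the promoter sequences hold p53 half-sites, shown here because this list had the most members lower with romidepsin. A promoter is 250 bases before to 50 after an annotated start, from RefSeq on GRCm38.p6. The p53 half-site consensus, searched on both strands, matched 758 of 9536 tested genes with a promoter in the table (7.95%), 9 of 22 list members with a promoter and 7 of the 15 of those that passed. A match is a description of letters and not evidence of binding. Each line gives 12 bases on either side in lower case with the match in capitals, read 5′ to 3′ on the strand of the gene.
Cdkn1a (chr17:29090894-29090927, plus strand): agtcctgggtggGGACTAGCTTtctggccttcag
Cdkn1a (chr17:29090916-29090949, plus strand): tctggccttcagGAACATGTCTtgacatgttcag
Ccng1 (chr11:40755450-40755483, minus strand): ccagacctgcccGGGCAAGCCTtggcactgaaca
Aen (chr7:78895925-78895958, plus strand): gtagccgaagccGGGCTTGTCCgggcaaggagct
Ei24 (chr9:36797323-36797356, minus strand): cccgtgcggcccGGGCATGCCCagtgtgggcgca
Bax (chr7:45467078-45467111, minus strand): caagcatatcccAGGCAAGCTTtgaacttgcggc
Gtse1 (chr15:85859943-85859976, plus strand): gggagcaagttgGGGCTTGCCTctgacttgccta
Polk (chr13:96519397-96519430, minus strand): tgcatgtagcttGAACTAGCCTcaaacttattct
The genes of these lines were lower with romidepsin by -0.92 (Polk, a DNA polymerase) to -2.58 (Cdkn1a) on the log2 scale. Between them lay Bax (-0.95), the nuclease gene Aen (-1.26), Ei24 (-1.02) and Gtse1 (-1.16). Both Cdkn1a matches fall in the promoter printed whole here (chr17:29090729-29091028, plus strand), with the matches in capitals.
Cdkn1a promoter: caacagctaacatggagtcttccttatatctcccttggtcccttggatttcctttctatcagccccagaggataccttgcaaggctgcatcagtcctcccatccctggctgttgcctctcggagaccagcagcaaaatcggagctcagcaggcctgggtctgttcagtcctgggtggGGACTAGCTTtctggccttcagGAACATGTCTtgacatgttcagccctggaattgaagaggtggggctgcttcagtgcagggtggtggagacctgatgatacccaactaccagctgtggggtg

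Of 12 tested regulators of p53, Mdm2 was lower with romidepsin and 11 did not pass, with a median log2 of -0.16. Mdm2, the ubiquitin ligase that p53 itself induces, stood at 65.8 and 80.4 CPM with romidepsin, 133 and 122 CPM with talazoparib and 75.5 and 71.7 CPM in control (log2 -0.80, SE 0.11, adjusted p = 0.00812, edgeR), a call lost with only the 4 compared libraries (adjusted p 2.63e-07 to 0.0699 over all these fits). Trp53, the p53 gene, stood at 117 and 103 CPM with romidepsin, against 116 and 130.4 CPM with talazoparib, and its libraries overlapped (log2 -0.17, SE 0.14, adjusted p = 0.457, edgeR). Mdm4 (gene ID 17248, chromosome 1, 132986105 to 133030587), which binds and inhibits p53, stood at 171 and 155 CPM with romidepsin, 254 and 259 CPM with talazoparib, 46.7 and 37.4 CPM with the combination and 32.2 and 47.4 CPM in control. Both single-drug groups lay above control and combination, whose libraries overlapped. Between the drugs Mdm4 did not pass (log2 -0.65, SE 0.18, adjusted p = 0.0574, edgeR), although it did without scaling, in DESeq2, in limma and without control 1 or control 2 (adjusted p 0.00439 to 0.233 over all these fits).

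Death genes were lower with romidepsin in 3 members, of which at least Bax is also on the p53 target list. Of 20 tested pro-apoptotic genes, Bax, Pidd1 and Fas, all p53 targets, were lower with romidepsin and 17 did not pass, with a median log2 of -0.25. Bax, which opens the outer mitochondrial membrane, stood at 94.6 and 97.8 CPM with romidepsin, against 194 and 179 CPM with talazoparib (log2 -0.95, SE 0.09, adjusted p = 0.00158, edgeR), and Pidd1, a scaffold for caspase-2, at 16.7 and 26.5 CPM with romidepsin, against 88.5 and 73.4 CPM with talazoparib (log2 -1.90, SE 0.21, adjusted p = 0.00324, edgeR). The death receptor gene Fas stood at 18.0 and 20.7 CPM with romidepsin, against 35.8 and 32.6 CPM with talazoparib (log2 -0.82, SE 0.12, adjusted p = 0.00872, edgeR), a call lost without romidepsin 1 and with only the 4 compared libraries (adjusted p 2.66e-06 to 0.0724). In none of them did the drugs' libraries overlap. None of 9 anti-apoptotic genes passed in edgeR or in DESeq2, with 2 at an unadjusted p under 0.05, while 1 passed, as lower, in edgeR without scaling and in limma. The closest was Mcl1, a Bcl2 relative, at 153 and 154 CPM with romidepsin, against 187 and 183 CPM with talazoparib (log2 -0.27, SE 0.08, adjusted p = 0.0684, edgeR).

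Interferon-stimulated genes split. Of 43 tested, 7 were lower with romidepsin and 1 was higher, with a median log2 of -0.20. Mx1, an antiviral GTPase with a near copy in Mx2, was lower, at 11.2 and 11.5 CPM with romidepsin, against 27.4 and 33.2 CPM with talazoparib and 12.7 and 12.7 CPM in control (log2 -1.42, SE 0.14, adjusted p = 0.00181, edgeR). The exonuclease gene Isg20 stood at 151 and 146 CPM with romidepsin, against 243 and 217 CPM with talazoparib (log2 -0.63, SE 0.09, adjusted p = 0.00943, edgeR), and Bst2, the tetherin that holds virus particles at the cell surface, at 161 and 172 CPM with romidepsin, against 221 and 222 CPM with talazoparib (log2 -0.41, SE 0.08, adjusted p = 0.0258, edgeR). Mx1 kept its call in all 17 other fits. Isg20 lost its call without romidepsin 1 or romidepsin 2 and Bst2 without either control library, either romidepsin library or talazoparib 2 (adjusted p 3.64e-06 to 0.0736 and 0.00232 to 0.119 over all these fits). The count of lower members was 11 without talazoparib 1, 4 without either combination library, 2 without talazoparib 2 or either control library and 1 without either romidepsin library.

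Among sensors of foreign nucleic acid, 2 of 9 tested were lower with romidepsin, with a median log2 of -0.29. Ikbke, a kinase that activates interferon regulatory factors, stood at 35.1 and 35.5 CPM with romidepsin, against 64.3 and 63.0 CPM with talazoparib (log2 -0.85, SE 0.08, adjusted p = 0.00181, edgeR) and kept its call in all 17 other fits. Samhd1, which degrades deoxynucleotides, stood at 0.585 and 0.272 CPM with romidepsin, against 2.42 and 2.07 CPM with talazoparib (log2 -2.43, SE 0.41, adjusted p = 0.0143, edgeR) and lost its call without romidepsin 2 and with only the 4 compared libraries (adjusted p 0.000169 to 0.088). For the interferon list the response element GAAA, any 2 bases, then GAAA again was searched on both strands. It occurred in the promoters of 358 of 9536 genes (3.75%), in 20 of 31 list members with a promoter and in 4 of the 5 of those lower with romidepsin, whose matches follow because the element is what most of the list shares. Capitals mark the match, and TTTC shows a match on the opposite strand.
Bst2 (chr8:71537581-71537614, minus strand): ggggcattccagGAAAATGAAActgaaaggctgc
Eif2ak2 (chr17:78882533-78882566, minus strand): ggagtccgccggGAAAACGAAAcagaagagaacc
Trim30a (chr7:104465208-104465241, minus strand): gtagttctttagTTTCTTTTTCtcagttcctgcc
Ifit3 (chr19:34583361-34583394, plus strand): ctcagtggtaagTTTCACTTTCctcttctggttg
Ifit3 (chr19:34583395-34583428, plus strand): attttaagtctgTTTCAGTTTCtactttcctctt
In Bst2 a further match overlaps the one in capitals, and Trim30a has a match of the same letters at another annotated start. Eif2ak2, the double-stranded RNA kinase, was lower by -0.62, Trim30a by -0.42 and Ifit3 by -1.47 on the log2 scale, with Ifit3 at 0.658 and 0.680 CPM with romidepsin, against 1.32 and 2.40 CPM with talazoparib.

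Genes of class I antigen presentation, which load peptides on surface MHC for killer T cells, lay on the other side. Of 21 tested, 5 were higher with romidepsin and 16 did not pass, with a median log2 of 0.21. B2m, the light chain of MHC class I, stood at 2369 and 2421 CPM with romidepsin, against 1814 and 1637 CPM with talazoparib (log2 0.47, adjusted p = 0.0262, edgeR), with 2391 and 2076 CPM in control. The heavy-chain genes H2-D1 (log2 0.44), H2-K1 (0.35) and H2-Q7 (0.43), which can share reads with each other, and the immunoproteasome subunit gene Psmb10 (0.41) were the others. These calls rested on the set of libraries: 7 members were higher without talazoparib 1, 2 without either combination library, 2 without control 1, 1 without control 2 and 0 without romidepsin 1, romidepsin 2 or talazoparib 2, while 10 had an unadjusted p under 0.05 and 6 passed in DESeq2. None of 7 MHC class II genes passed in edgeR, DESeq2 or limma, with 1 at an unadjusted p under 0.05.

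Histone genes were the list furthest higher with romidepsin. Of 14 tested, 7 were higher and 7 did not pass, with a median log2 of 1.15. Against control the median was 0.24 with romidepsin and -0.93 with talazoparib. H1f0 (gene ID 14958, chromosome 15, 79028212 to 79030504), a linker histone of slowly dividing cells, stood at 348 and 320.5 CPM with romidepsin, 127 and 87.2 CPM with talazoparib, 131 and 124 CPM with the combination and 269 and 248 CPM in control (log2 1.64, SE 0.16, adjusted p = 0.00201, edgeR). H3f3b (gene ID 15081, chromosome 11, 116021961 to 116026039), which encodes the replacement histone H3.3, stood at 953 and 1058 CPM with romidepsin, against 488 and 412 CPM with talazoparib, and 922 and 759 CPM in control (log2 1.16, SE 0.12, adjusted p = 0.00298, edgeR). H1f0 and H3f3b kept their calls in all 17 other fits, and in both the romidepsin libraries were the highest of the 8. Against control neither passed with romidepsin (log2 0.37 and 0.26, adjusted p = 0.940 for each, edgeR). Both passed as lower with talazoparib (log2 -1.27 and -0.90, adjusted p = 0.00449 and 0.00595, edgeR). H2afx, the histone phosphorylated at DNA breaks, stood at 92.8 and 102 CPM with romidepsin, against 57.4 and 30.8 CPM with talazoparib (log2 1.14), Hist3h2ba at 2.85 and 6.66 CPM with romidepsin, against 0.850 and 0.834 CPM with talazoparib (log2 2.50), and Hist2h2be at 10.3 and 11.3 CPM with romidepsin, against 5.64 and 2.54 CPM with talazoparib (log2 1.40). The talazoparib libraries of H2afx and Hist2h2be, and the romidepsin libraries of Hist3h2ba, lay far apart from each other. Hist3h2a (log2 2.79), at about 1 CPM or less in every library, and H2afz (0.39) were the remaining members. Without single libraries the count of higher members was 9 (talazoparib 1), 4 (talazoparib 2, either control or either combination library), 3 (romidepsin 1) and 2 (romidepsin 2). H2afx and Hist2h2be lost their calls on leaving out any library but a talazoparib one, and Hist3h2ba without romidepsin 2 or talazoparib 2 (adjusted p 4.73e-05 to 0.144, 0.000218 to 0.145 and 1.24e-05 to 0.108 over all these fits, log2 0.76 to 1.66, 0.94 to 2.09 and 1.75 to 2.97 with a library left out). Histone genes have near-identical copies among which reads can be split, and many of their transcripts lack the poly(A) tail by which mRNA libraries are selected, so these CPM do not measure all histone RNA.

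The targets of the drugs did not differ at the RNA level past the threshold. Hdac1 stood at 354 and 315 CPM with romidepsin, against 338 and 389 CPM with talazoparib (log2 -0.12, SE 0.10, adjusted p = 0.493, edgeR), and Hdac2 at 157 and 149 CPM with romidepsin, against 122 and 123 CPM with talazoparib (log2 0.32, SE 0.08, adjusted p = 0.0514, edgeR). Hdac2 passed with RLE size factors, without the filter, in DESeq2 and with robust variance estimates (adjusted p 0.0221 to 0.179 over all these fits). Hdac3 stood at 100.5 and 102 CPM with romidepsin, against 102 and 95.9 CPM with talazoparib (log2 0.03, SE 0.08, adjusted p = 0.814, edgeR), with a log2 fold change of -0.06 without scaling and in limma and -0.01 without talazoparib 2. Of the 16 tested histone deacetylase and sirtuin genes, 0 passed in edgeR, 3 had an unadjusted p under 0.05, 2 passed in DESeq2 and 4 in edgeR without talazoparib 1. Parp1, the main PARP enzyme, stood at 572 and 589.7 CPM with romidepsin, against 511 and 484 CPM with talazoparib (log2 0.23, SE 0.07, adjusted p = 0.098, edgeR), and Parp2 at 55.3 and 54.0 CPM with romidepsin, against 49.4 and 47.2 CPM with talazoparib (log2 0.18, SE 0.10, adjusted p = 0.279, edgeR). The romidepsin libraries of both lay above the talazoparib libraries by less than the test could call.

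Genes often induced by histone deacetylase inhibitors showed no common direction between the drugs: of 18 tested, 3 were higher with romidepsin, 2 were lower and 13 did not pass. The median log2 of 0.03 was -0.06 without scaling and -0.03 in limma. H1f0 and the metallothionein genes Mt1 (1727 and 1665 CPM with romidepsin, against 1052 and 746 CPM with talazoparib, log2 0.92) and Mt2 (1805 and 1738 CPM with romidepsin, against 1099 and 943 CPM with talazoparib, log2 0.79), which bind metals and can share reads, were the higher ones. Cdkn1a and Txnip, an inhibitor of thioredoxin, were the lower ones, with Txnip at 184 and 148 CPM with romidepsin, against 257 and 278 CPM with talazoparib (log2 -0.69). Mt1, Mt2 and Txnip lost their calls without romidepsin 1 or romidepsin 2, and Mt1 and Txnip also without talazoparib 2 (adjusted p 2.32e-05 to 0.107, 1.66e-06 to 0.0741 and 0.000228 to 0.138 over all these fits). Txnip also lost it without either combination library. Among co-repressor subunits, Tbl1xr1 was the 1 higher gene of 24 (log2 0.49). Of 19 acetyltransferase and bromodomain genes, Brd1 was higher (0.40) and the acetyltransferase gene Kat2b (-0.61), Brd9 (-0.41) and Brpf1 (-0.33) were lower. The calls of these 5 were lost without romidepsin 1 or romidepsin 2 (adjusted p up to 0.116 for Tbl1xr1, 0.127 for Brd1, 0.0765 for Kat2b, 0.206 for Brd9 and 0.179 for Brpf1 over all these fits).

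Genes of the integrated stress response, which Atf4 induces when amino acids or translation factors run short, lay higher with romidepsin. Of 25 tested, 10 were higher and 2 lower, with a median log2 of 0.46. Against control the list's median was 0.02 with romidepsin and -0.51 with talazoparib. Atf4 (gene ID 11911, chromosome 15, 80255184 to 80257545) itself stood at 224 and 263 CPM with romidepsin, 139.5 and 129 CPM with talazoparib, 131 and 134 CPM with the combination and 257 and 222 CPM in control (log2 0.86, SE 0.11, adjusted p = 0.00606, edgeR). Asns (gene ID 27053, chromosome 6, 7675165 to 7693209), asparagine synthetase, stood at 1490.0 and 1594 CPM with romidepsin, against 968 and 803 CPM with talazoparib, and 1598 and 1474 CPM in control (log2 0.80, SE 0.10, adjusted p = 0.00611, edgeR). In both, romidepsin lay at the control level and talazoparib below it. Mthfd2, an enzyme of mitochondrial folate metabolism, stood at 169.5 and 189.8 CPM with romidepsin, against 109 and 93.3 CPM with talazoparib (log2 0.83), and the serine synthesis gene Psat1 at 426 and 407 CPM with romidepsin, against 298 and 266 CPM with talazoparib (log2 0.56). Against these, Sesn2, a sestrin that p53 also induces, was lower, at 32.2 and 46.8 CPM with romidepsin, against 93.7 and 100.1 CPM with talazoparib (log2 -1.29, SE 0.16, adjusted p = 0.00497, edgeR), and so was the kinase gene Eif2ak3 (log2 -0.47). All these calls were lost with only the 4 compared libraries, that of Asns also without romidepsin 2, that of Psat1 without romidepsin 1 or romidepsin 2, and that of Eif2ak3 on leaving out any library but talazoparib 1 (adjusted p 1.33e-08 to 0.0572 for Atf4, 2.58e-08 to 0.072 for Asns, 2.02e-08 to 0.0648 for Mthfd2, 1.32e-05 to 0.0904 for Psat1, 9.05e-12 to 0.0572 for Sesn2 and 0.00218 to 0.121 for Eif2ak3). The count of higher members was 11 without talazoparib 1, 8 without either combination library, 5 without either control library or romidepsin 1, 4 without talazoparib 2 and 2 without romidepsin 2.

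The element TGATGNAA, the form in which Atf4 and its partners are known to bind, was searched in the same promoters on both strands. It was in 251 of 9536 genes (2.63%), in 8 of 24 list members with a promoter and in 4 of the 11 of those that passed. Matches of 3 are printed because all 4 genes were higher with romidepsin, Chac1 by 1.12, Asns by 0.80, Aars by 0.47 and Gars by 0.43 on the log2 scale.
Asns (chr6:7693213-7693244, minus strand): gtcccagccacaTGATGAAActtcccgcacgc
Gars (chr6:55037959-55037990, plus strand): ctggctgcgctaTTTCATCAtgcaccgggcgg
Chac1 (chr2:119351037-119351068, plus strand): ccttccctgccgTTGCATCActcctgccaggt
Gars and Aars encode tRNA synthetases, and Chac1 an enzyme that breaks down glutathione. Capitals mark the element, on the opposite strand in all but Asns. Chac1 stood at 8.44 and 12.3 CPM with romidepsin, against 4.47 and 5.11 CPM with talazoparib, and these values did not overlap.

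Cholesterol synthesis genes, induced by the transcription factor Srebf2, lay higher with romidepsin. Of 24 tested, 10 were higher and 14 did not pass, with a median log2 of 0.53. Against control the list's median was 0.03 with romidepsin and -0.43 with talazoparib. Insig1 (gene ID 231070, chromosome 5, 28071412 to 28078662), which holds the sterol sensor in the endoplasmic reticulum, stood at 197 and 180.4 CPM with romidepsin, against 95.8 and 78.9 CPM with talazoparib (log2 1.11, SE 0.14, adjusted p = 0.00595, edgeR) and kept its call in all 17 other fits. Lss, lanosterol synthase, stood at 133 and 111 CPM with romidepsin, against 69.1 and 67.0 CPM with talazoparib (log2 0.84, SE 0.10, adjusted p = 0.00487, edgeR). Pmvk, phosphomevalonate kinase, stood at 84.9 and 81.7 CPM with romidepsin, against 48.2 and 33.8 CPM with talazoparib (log2 1.02, SE 0.15, adjusted p = 0.00984, edgeR), and Hmgcs1, which makes HMG-CoA, at 593 and 441 CPM with romidepsin, against 279 and 279 CPM with talazoparib (log2 0.89, SE 0.14, adjusted p = 0.0104, edgeR). The romidepsin libraries of Lss and Hmgcs1 lay around the control libraries, at 113 and 114 CPM and at 485 and 518 CPM. Those of Pmvk lay just above its control libraries, at 81.1 and 74.7 CPM. The talazoparib libraries of Lss, Pmvk and Hmgcs1 lay below control. Their calls were lost with only the 4 compared libraries, and that of Pmvk without romidepsin 1 or romidepsin 2 (adjusted p 2.21e-09 to 0.0618 for Lss, 1.08e-07 to 0.0786 for Pmvk and 1.29e-07 to 0.0781 for Hmgcs1). Fdps, Sqle, Srebf2, Msmo1 and Cyp51, at log2 0.58 to 0.85, were among the other higher members. The count was 10 without talazoparib 1 and 9 without talazoparib 2, 8 without either combination library, 7 without either control library, 6 without romidepsin 2 and 3 without romidepsin 1. The sterol element CACNCCAC was in 706 of 9536 promoters (7.4%), searched on both strands, and in 3 of 17 of the list. Of 13 fatty acid synthesis genes, the desaturase genes Scd1 (log2 0.89), Scd2 (0.66) and Fads1 (0.38) were higher, calls lost without romidepsin 1 (adjusted p 3.39e-07 to 0.0736, 6.78e-05 to 0.108 and 0.0115 to 0.165 over all these fits).

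Glycolysis genes lay higher with romidepsin too: 9 of 23 tested were higher and 1 was lower, with a median log2 of 0.50. Against control the list's median was 0.11 with romidepsin and -0.46 with talazoparib. Slc2a3, a glucose transporter, stood at 1636 and 1555 CPM with romidepsin, 825 and 958 CPM with talazoparib and 1554 and 1448 CPM in control (log2 0.84, SE 0.09, adjusted p = 0.00357, edgeR). Pfkp, a phosphofructokinase, stood at 1092 and 1237 CPM with romidepsin, against 664 and 464 CPM with talazoparib (log2 1.05, SE 0.15, adjusted p = 0.00943, edgeR), and Ldha, lactate dehydrogenase A, at 4206 and 4482 CPM with romidepsin, against 3011 and 2343 CPM with talazoparib (log2 0.70, SE 0.13, adjusted p = 0.0191, edgeR). The talazoparib libraries of Pfkp and Ldha also differed from each other, talazoparib 2 being the lower. Ldhb, the other lactate dehydrogenase subunit, was the lower member, at 101 and 111 CPM with romidepsin, against 139 and 133 CPM with talazoparib (log2 -0.36, SE 0.09, adjusted p = 0.0463, edgeR). The call of Slc2a3 was lost with only the 4 compared libraries, that of Pfkp without romidepsin 2, that of Ldha without romidepsin 1 or romidepsin 2 and that of Ldhb on leaving out any of the 8 libraries (adjusted p 2.8e-11 to 0.0568, 1.8e-08 to 0.0828, 6.55e-05 to 0.122 and 0.0147 to 0.176 over all these fits). The count of higher members was 14 without talazoparib 1, 5 without either combination library, 4 without either control library, 3 without talazoparib 2, 2 without romidepsin 1 and 1 without romidepsin 2. Myc, the growth-promoting transcription factor, stood at 124 and 119.8 CPM with romidepsin, 62.0 and 78.0 CPM with talazoparib and 118 and 134 CPM in control (log2 0.80, SE 0.15, adjusted p = 0.0193, edgeR), lost without romidepsin 1 or romidepsin 2 (adjusted p 2.14e-05 to 0.0879). Of 29 Myc targets and ribosome biogenesis genes, Myc and Ldha were the 2 higher ones.

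Genes of T-cell identity went both ways. Of 28 tested, 4 were higher with romidepsin and 3 lower, with a median log2 of 0.10. Beside Tcf7, the higher members were Ikzf1 (500.2 and 422 CPM with romidepsin, against 228 and 323 CPM with talazoparib, log2 0.74), Gata3 (157 and 217 CPM with romidepsin, against 129 and 102 CPM with talazoparib, log2 0.69) and the T-cell receptor chain gene Cd3d (log2 0.40). The lower members were the receptor genes Notch3 and Notch1 and the T-cell receptor zeta chain gene Cd247 (log2 -0.39). Notch3 (gene ID 18131, chromosome 17, 32120820 to 32166896) stood at 60.6 and 51.0 CPM with romidepsin, 114 and 151 CPM with talazoparib, 131 and 105 CPM with the combination and 43.5 and 45.7 CPM in control (log2 -1.25, SE 0.17, adjusted p = 0.00645, edgeR), and Notch1 at 47.0 and 46.2 CPM with romidepsin, against 82.0 and 108 CPM with talazoparib (log2 -1.03, SE 0.15, adjusted p = 0.00943, edgeR). In both the romidepsin libraries lay slightly above control, against which neither gene passed with romidepsin, and far below talazoparib. No other of the 19 tested Notch pathway genes passed, and their median log2 was -0.13. The call of Notch3 was lost without romidepsin 2 and that of Notch1 without romidepsin 1 or romidepsin 2, and those of Ikzf1, Gata3, Cd3d and Cd247 in most fits that left out a library (adjusted p 8.85e-11 to 0.0584, 6.97e-08 to 0.0714, 0.00043 to 0.149, 0.00148 to 0.194, 0.015 to 0.208 and 0.0166 to 0.156 over all these fits).

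Of 20 costimulation and checkpoint receptor genes, 2 were higher with romidepsin and 2 lower, with a median log2 of -0.10. Beside Cd80, the lower one was Il2rb, a chain of the interleukin-2 receptor, at 29.7 and 27.2 CPM with romidepsin, against 49.1 and 54.5 CPM with talazoparib (log2 -0.86, SE 0.11, adjusted p = 0.00563, edgeR). Its call was lost without romidepsin 2 (adjusted p 5.37e-08 to 0.0568). Pdcd1, which encodes the checkpoint receptor PD-1, stood at 306 and 284 CPM with romidepsin, against 194 and 233 CPM with talazoparib (log2 0.47), and Cd47, the signal that keeps phagocytes off, at 79.0 and 92.0 CPM with romidepsin, against 59.6 and 39.6 CPM with talazoparib (log2 0.79). Both were higher with romidepsin, and both calls were lost on leaving out any library except talazoparib 2 for Pdcd1 and talazoparib 1 for Cd47 (adjusted p 0.00477 to 0.157 and 0.00128 to 0.198). Among 28 cytokine receptor and JAK-STAT genes, Il2rb, Il6ra (log2 -2.27) and Il10rb (-0.64) were lower, the calls of Il6ra and Il10rb being lost without either romidepsin library, talazoparib 2 or either combination library, and that of Il10rb also without either control library (adjusted p 0.000711 to 0.171 and 0.00453 to 0.145).

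Some DNA repair genes passed, where 8.81% of all tested genes did. Of 34 homologous recombination and Fanconi genes, 3 were higher with romidepsin, Rad54b (log2 0.52), Bard1 (0.50) and Fance (0.49), and 1 was lower, Fancg (-0.58). Without scaling 0 were higher and 4 lower. Of 28 base excision and single-strand break repair genes, Tdp1, which frees proteins from DNA ends, was higher at 61.3 and 56.9 CPM with romidepsin, against 37.0 and 31.5 CPM with talazoparib (log2 0.79, SE 0.11, adjusted p = 0.00878, edgeR), and so was the uracil glycosylase gene Ung at 32.6 and 33.3 CPM with romidepsin, against 21.6 and 21.8 CPM with talazoparib (log2 0.60, SE 0.10, adjusted p = 0.0154, edgeR). Both stood at the control level with romidepsin, 59.8 and 59.2 CPM for Tdp1 and 35.4 and 39.8 CPM for Ung being the control values. The call of Tdp1 was lost without romidepsin 1, those of Ung and Fancg without romidepsin 1, romidepsin 2 or talazoparib 2, and those of Rad54b, Bard1 and Fance in most fits with a library left out (adjusted p 1.26e-06 to 0.0724, 0.000385 to 0.0905, 0.000432 to 0.103, 0.0142 to 0.177, 0.00747 to 0.205 and 0.0175 to 0.201 over all these fits). None of 13 end joining genes passed in edgeR, 1 had an unadjusted p under 0.05, 1 passed in DESeq2 and 2, in opposite directions, in edgeR without talazoparib 1.

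Proliferation genes lay close together. Of 41 DNA replication genes, the polymerase subunit gene Pold2 (133 and 134 CPM with romidepsin, against 88.8 and 85.4 CPM with talazoparib, log2 0.61) and Orc3 (log2 0.38) were higher with romidepsin. Of 30 mitosis genes, the kinase gene Plk1 was higher, at 190.5 and 179 CPM with romidepsin, against 146 and 142 CPM with talazoparib (log2 0.36), and the list's median was 0.13. The proliferation marker Mki67 stood at 1289 and 1158 CPM with romidepsin, against 882 and 1085 CPM with talazoparib (log2 0.31, SE 0.11, adjusted p = 0.12, edgeR) and did not pass. Of 8 CDK inhibitor genes, Cdkn1a was the 1 that passed. Pold2 lost its call without romidepsin 2, Plk1 and Orc3 on leaving out any library but talazoparib 1 (adjusted p 1.71e-06 to 0.0677, 0.00675 to 0.151 and 0.0166 to 0.169 over all these fits).

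Among 9 ABC transporter genes, which pump substances out of cells, Abcb1b (gene ID 18669, chromosome 5, 8798147 to 8866314) was lower with romidepsin. It encodes a P-glycoprotein, a pump known in human cells to export romidepsin. It stood at 106 and 92.8 CPM with romidepsin, 243 and 263 CPM with talazoparib, 264 and 249 CPM with the combination and 93.2 and 101 CPM in control (log2 -1.34, SE 0.10, adjusted p = 0.000617, edgeR), and kept its call in all 17 other fits. Its neighbour Abcb1a stood at 0.658 and 0.625 CPM with romidepsin, against 0.945 and 6.37 CPM with talazoparib, so that talazoparib 2 alone lay apart (log2 -2.50, SE 0.97, adjusted p = 0.139, edgeR). Abcb1a passed without talazoparib 1 (adjusted p 0.0232 to 0.761 over all these fits).

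The remaining lists are given by member, where 8.81% of all tested genes passed the threshold. Hsp90b1 (0.55) was the 1 higher gene of 21 in the unfolded protein response, and the chaperone gene Cryab (-1.44) the 1 lower of 13 heat shock genes. Nfkbie (-0.76) was the 1 lower of 17 NF-kB genes. Of 18 NRF2 targets Tkt was higher (0.33) and Nfe2l2, the NRF2 gene, lower (-0.45). Of 25 actin and adhesion genes, Acta2 (0.58) and Actn4 (0.35) were higher, and 3 were lower, among them Mcam and the desmin gene Des (4.50 and 6.20 CPM with romidepsin, against 23.7 and 15.8 CPM with talazoparib, log2 -1.88). Of 12 tubulins Tubb2b was lower (-0.60), and of 4 germ-cell genes Zpbp was higher (1.07). Of 21 immediate early and ERK feedback genes, Nr4a3 (1.53) and Ier2 (0.46) were higher and Ier5 (-0.72) and Dusp2 (-0.47) lower. Leaving out romidepsin 1, and for most of them other libraries too, ended the calls of Hsp90b1, Cryab, Nfkbie, Tkt, Nfe2l2, Acta2, Actn4, Tubb2b, Zpbp, Nr4a3, Ier2, Ier5 and Dusp2, with adjusted p over all these fits of up to 0.188, 0.0926, 0.141, 0.19, 0.116, 0.0883, 0.149, 0.133, 0.0935, 0.153, 0.153, 0.0736 and 0.151. None of 7 neuronal and none of 13 DNA methylation genes passed in edgeR, with 3 and 4 at an unadjusted p under 0.05 and 1 and 0 passing in DESeq2. Of the DNA methylation genes, 1 passed, as lower, in edgeR without scaling and in limma.

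Markers of other blood and stromal cells moved with the comparison in part. Of 10 myeloid markers 3 were listed, with a summed level of 21.2 and 24.4 CPM with romidepsin, 44.3 and 38.0 CPM with talazoparib and 17.3 and 15.1 CPM in control. The lysozyme gene Lyz2 (5.88 and 5.98 CPM with romidepsin, against 11.7 and 11.5 CPM with talazoparib) and the integrin gene Itgam (7.57 and 6.91 CPM with romidepsin, against 11.8 and 14.1 CPM with talazoparib) were lower with romidepsin, by -0.96 and -0.84 on the log2 scale. Csf1r, Adgre1, Cd14, S100a8, S100a9, Mpo and Elane, other myeloid markers, were not analysed here. Of 6 B-cell markers 2 were listed, summing to 49.4 and 53.5 CPM with romidepsin, 47.8 and 54.5 CPM with talazoparib and 53.1 and 40.3 CPM in control, and Cd79b was lower with romidepsin (4.86 and 5.49 CPM with romidepsin, against 9.83 and 9.01 CPM with talazoparib, log2 -0.86). Of 4 NK-cell markers Nkg7 was lower (log2 -1.27), of 4 stromal markers Acta2 was higher and Pdgfra (-0.78) and Pdgfrb (-0.90) lower, and of 2 erythroid and 1 endothelial marker none passed in edgeR, at an unadjusted p under 0.05 or in DESeq2, though the endothelial one, Pecam1, passed without talazoparib 1. Lyz2, Itgam, Cd79b, Pdgfra and Pdgfrb lost their calls without romidepsin 1 or romidepsin 2 (adjusted p 3.22e-05 to 0.0724, 0.00119 to 0.153, 0.00212 to 0.117, 0.000344 to 0.126 and 0.000228 to 0.161 over all these fits). The part of these markers in the interferon, MHC and Spib results was not tested.

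A measurement that shares no library with the comparison was at hand in the combination against control. Both came from the same fit, with a common filter, scaling and estimate of each gene's spread. The calls of the 2 contrasts are therefore not independent of each other. Of the 428 genes higher with romidepsin than with talazoparib, 411 were below control in the combination, where 280 passed as lower and 2 as higher. Of the 623 lower genes, 613 were above control in the combination, and 437 passed as higher. Over all 11934 genes, 1222 passed as higher in the combination (10.2%) and 869 as lower (7.28%). The median log2 fold change of the combination over control was -0.47 for the 428 genes and 0.71 for the 623, beside 0.00 for all tested genes. As a description across genes, and genes are no independent replicates, the log2 fold changes of both measurements correlated at r = -0.636. Spp1, Irf8 and Gng3 were among the 17 higher genes that were not below control in the combination.

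**Figure D3:**
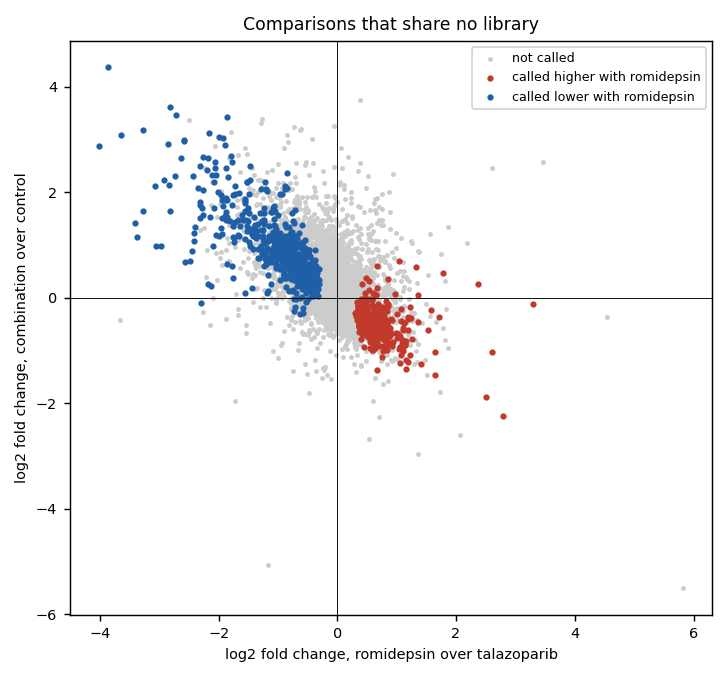
Each point is a gene, with its log2 fold change of romidepsin over talazoparib on the x axis and that of the combination over control, which uses other libraries, on the y axis. Genes called lower with romidepsin (blue) lie mostly in the upper left, 613 of 623 above 0, and those called higher (red) mostly in the lower right, 411 of 428 below 0.

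The number of genes called depended on which libraries entered the fit. It was 74 with only the 4 compared libraries, where the spread has fewer degrees of freedom, 157 without romidepsin 2, 175 without romidepsin 1, 377 without talazoparib 2, 486 and 487 without control 2 and control 1, 577 and 579 without combination 2 and combination 1, and 1777 without talazoparib 1. The lower calls outnumbered the higher calls in each of these fits. Without scaling, which moves the median of all genes to -0.09 on the log2 scale, 79.6% of the calls were lower with romidepsin, and in limma on log2(FPKM + 1), with a median of -0.07, 77.6%, against 59.3% with TMM scaling. Of the 30 genes with the largest differences, 18 kept their call in all 17 other fits, 12 of the 15 lower and 6 of the 15 higher, and all 30 kept their direction.

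**Figure D4:**
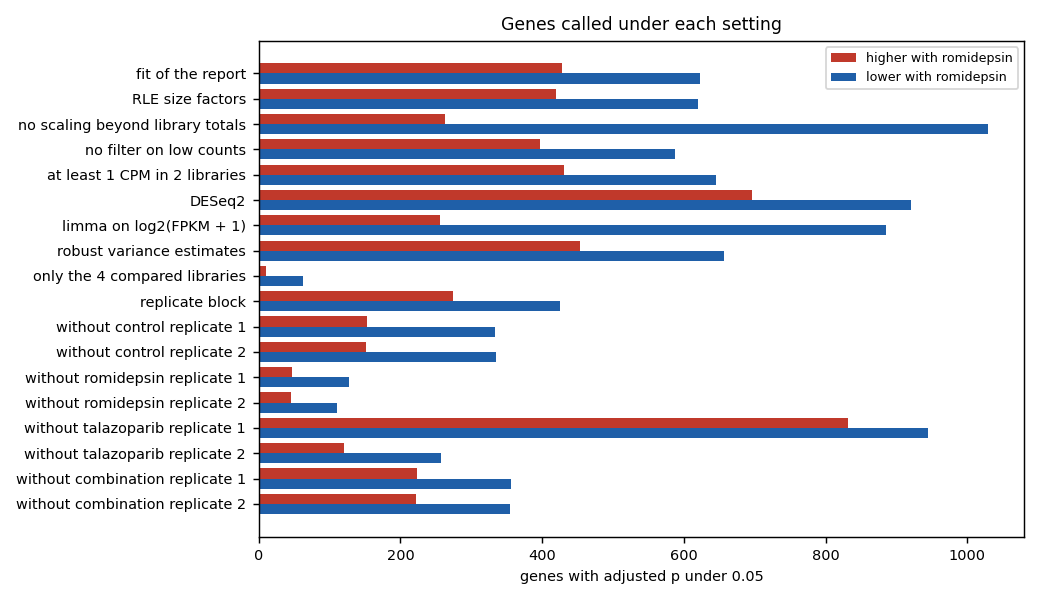
Number of genes with an adjusted p under 0.05, higher (red) and lower (blue) with romidepsin, in the fit of the report and in the 17 other fits. The counts ranged from 11 higher and 63 lower with only the 4 compared libraries to 832 higher and 945 lower without talazoparib 1 (the largest sum), and the blue bar is the longer in every row.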

How the data were processed

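RNA was sequenced in MBL2 cells 24 h after treatment, in 8 libraries made with a stranded mRNA kit from 3 wells each, per the labels' protocols. Per the submitters' processing notes, the tools were HISAT2 for alignment and StringTie for assembly, on mm10, with no version or setting stated. The authors deposited raw read counts per gene, which are whole numbers, with FPKM values (fragments per gene length and depth) and normalised log2 values, per the file headers. Log2 values and the authors' comparisons entered no test. Of the gene IDs, 12237 matched RefSeq on GRCm38.p6 and 23 did not.

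Groups came from the sample labels. Counts were filtered with filterByExpr, scaled with TMM (factors 0.954 to 1.04) and fitted in edgeR 4.0.16 (R 4.3.3) with 1 mean per group over all 8 libraries, which left 4 residual degrees of freedom and gave a biological coefficient of variation of 12.9%. The contrast was romidepsin minus talazoparib, tested by quasi-likelihood with Benjamini-Hochberg adjustment over all tested genes. Alternatives were other scalings and filters, DESeq2 1.42.0, limma 3.58.1 on log2(FPKM + 1), robust variances, the 4 compared libraries alone, a replicate block and each library left out. The code was tested on simulated data.

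Named genes were the 15 largest differences in each direction among those past the threshold with at least 2 FPKM in the higher group, an ordinary symbol (36 others were left out) and no overlap between the libraries, plus fixed genes of the drug targets, p53, transport and proliferation, and up to 4 members per direction of each of 46 gene lists with a tested member, or 2 where none passed. Genes with a printed promoter match were added. Members and lists were chosen with earlier results of these data known. The fit did not pair libraries by replicate number, as the labels do not say that a number marks a shared batch. Differences between replicates 1 and 2 correlated at r = -0.333 between romidepsin and talazoparib, and at -0.156 to 0.287 between the other pairs of groups. Whether the numbers mark shared or crossed batches was not tested. No mitochondrially encoded gene was tested. Genes without reads in some library are not analysed here, and depth limits calls of low genes. Some members of the lists are not reported here.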

Additional observations from a re-analysis of the deposited data

How the results depend on the processing

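The counts of 1051 genes called, 428 higher and 623 lower with romidepsin, stayed within 1.5 times under RLE size factors, no filter, a filter of 1 CPM in 2 libraries and robust variances. No scaling gave 263 higher and 1029 lower, limma on log2(FPKM + 1) 256 higher, and DESeq2 1616 genes with 696 higher. Only the 4 compared libraries gave 74, with 11 higher and 63 lower. The replicate block gave 699 with 274 higher, 684 of them among the 1051. Leaving out libraries in turn gave 157 to 1777 genes, 46 to 832 higher and 111 to 945 lower. Chosen after seeing the data, within the 4 compared libraries a replicate block gave 36 genes (3 higher, 33 lower) and a block that crosses the replicate numbers 3568 (1778 higher, 1790 lower); the cause was not tested. Without talazoparib 1 more genes passed, and 878 were among the 1051.

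Of the 119 named genes that passed, 28 kept the call in all 17 other fits. Over all named genes and fits, 1903 values kept direction and side of the threshold, 502 lost the call, 21 gained it and 3 changed sign. The sign changes were in Hdac3, main value 0.03, at -0.063 without scaling and -0.0598 in limma, and from -0.00838 (without talazoparib 2) to 0.0782 when a library was left out. List medians near 0, such as those of histone deacetylases, end joining, CDK inhibitors, NF-kB and NRF2 genes, also changed sign. With 2 libraries per group, leaving 1 out assumes that the lone library varies like the other groups.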

Other observations

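Some large differences that did not pass the test rested on single libraries. Of 81 tested genes with a fitted difference of at least 4-fold, 23 did not pass in edgeR, and in 4 of these the libraries of the drugs overlapped. The ribosomal protein gene Rps27 stood at 7.13 CPM in romidepsin 1 and 664 CPM in romidepsin 2, with 5.89 and 5.94 CPM with talazoparib, 5.87 and 6.24 CPM with the combination, and 6.90 CPM in control 1 and 545 CPM in control 2. Its log2 fold change of 5.83 had an adjusted p of 0.132 (edgeR). Atp6v0c, a proton pump subunit, stood at 2.45 CPM in romidepsin 1 and 130.3 CPM in romidepsin 2, against 2.65 and 3.07 CPM with talazoparib (log2 4.54, adjusted p = 0.0738, edgeR). Sap25 stood at 7.31 CPM in romidepsin 1 and 0.571 CPM in romidepsin 2, and at 6.80 CPM in combination 1 and 0.878 CPM in combination 2, against 0.693 and 0.567 CPM with talazoparib. Gm5643 stood at 32.5 and 30.6 CPM with romidepsin, against 777 CPM in talazoparib 1 and 23.9 CPM in talazoparib 2 (log2 -3.67, adjusted p = 0.0880, edgeR). Others were low in every library, such as Mrc2 at 0.110 and 0.136 CPM with romidepsin, against 0.630 and 0.601 CPM with talazoparib (log2 -2.27, adjusted p = 0.0823, edgeR). These genes were chosen after their values were seen.

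Cd74, the invariant chain of MHC class II, stood at 25.4 and 28.5 CPM with romidepsin, 37.7 and 34.3 CPM with talazoparib, 81.9 and 92.9 CPM with the combination and 17.1 and 12.7 CPM in control. The single drugs did not differ past the threshold (log2 -0.42, SE 0.15, adjusted p = 0.118, edgeR), and the libraries of both lay above control and below the combination. Against control Cd74 did not pass with romidepsin (log2 0.86, adjusted p = 0.940, edgeR). It passed as higher with talazoparib (log2 1.27, adjusted p = 0.00381, edgeR) and with the combination (log2 2.55, adjusted p = 0.000269, edgeR).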
